A study of Rattus norvegicus with 12 samples.

Results

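The genes described here are those that mark the oligodendrocyte lineage of the brain, meaning the cells that make myelin, their precursors, and the genes of myelin itself. By the rule, 34 genes were named, and a gene was measured where a probe set of the array carried its symbol alone and had a mean log2 expression above 4 over the 12 arrays, with the probe set of highest mean taken where there were several. This gave 30 measured genes of the 14847 genes tested. They were 15 of 17 genes of mature myelin and oligodendrocytes, Aspa and Ndrg1, 5 of 5 lineage transcription factors, 2 of 3 genes of committed precursors and 6 of 7 genes of precursors. Gal3st1, Trf, Gpr17 and Lhfpl3 were not analysed under those symbols. The probe set of Gpr17 carries several symbols, and the rat gene for transferrin is named Tf and is given beside the rule.

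RNA of the whole prefrontal cortex (PFC), with no separation of its subregions, was measured on 1 array per rat. The rats were adult male Sprague-Dawley rats in 2 groups of 6, and every rat was killed 2 h after the session began. Rats of the Stress group received inescapable footshock (FS) in a session of 40 min, with 0.8 mA shocks for 20 min in all and gaps of 2 to 8 s between shocks. Rats of the Control group were left undisturbed in their home cages, so handling, the shock box and the shock were not separated by the design. Values are deposited log2 expression, and a difference is Stress minus Control on that scale.

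Oligodendrocyte precursors divide in the adult brain and some of them leave the cycle, pass through a short committed stage and become oligodendrocytes that wrap axons in myelin. Precursors are known by receptors and surface proteoglycans such as Pdgfra and Cspg4, committed cells by genes such as Enpp6 and Bcas1, and mature cells by the proteins and lipid enzymes of the myelin sheath. In the cortex most myelin lies in the deep layers and in the white matter under them, so how much white matter a piece of tissue holds bears on the level of all myelin genes. In bulk tissue, fewer cells of a type and less RNA per cell cannot be told apart.

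The 12 arrays were much alike, with medians of 5.48 to 5.54 and correlations between arrays of 0.994 to 0.998. Clustering on the dimmest 10% of probe sets split them into array set 1, with Control 1 to 4, and array set 2, with Control 5, Control 6 and all 6 Stress arrays. Set 1 holds Controls only, so within-set values come from set 2, with 6 Stress and 2 Control arrays. These include Control 5, the array with the highest choroid plexus and striatal markers, as given further on. Of all 16085 probe sets tested, 7 passed an adjusted p of 0.05 (limma, Benjamini-Hochberg), which is 0.0435% of them. Of the markers of cortical excitatory neurons 11 of 12 were measured, with means of 7.48 to 11.9, and so were 12 of 14 striatal and 10 of 10 choroid plexus markers, so these counts do not by themselves bear out the tissue label.

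Sequences upstream of the gene start were taken from RefSeq promoters of the GRCr8 assembly, which held a window for 19 of the 30 measured genes. The 3 below are shown because they stand for the group with the largest difference, for the mature myelin genes and for the precursor genes. Each runs 5′ to 3′ on the strand of its gene and ends at the base before the annotated start, 250 bases in all. Capitals mark matches to ACAAAG (the core that SOX factors such as Sox10 are known to bind) or to CAGCTG (an E-box, read by helix-loop-helix factors such as Olig1 and Olig2).
Aspa, chr10:58439038-58439287, minus strand: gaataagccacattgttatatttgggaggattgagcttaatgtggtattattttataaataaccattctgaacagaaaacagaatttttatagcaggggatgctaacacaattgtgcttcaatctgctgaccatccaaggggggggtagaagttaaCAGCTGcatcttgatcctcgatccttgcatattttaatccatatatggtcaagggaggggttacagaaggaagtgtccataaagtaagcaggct
Cnp, chr10:86011254-86011503, plus strand: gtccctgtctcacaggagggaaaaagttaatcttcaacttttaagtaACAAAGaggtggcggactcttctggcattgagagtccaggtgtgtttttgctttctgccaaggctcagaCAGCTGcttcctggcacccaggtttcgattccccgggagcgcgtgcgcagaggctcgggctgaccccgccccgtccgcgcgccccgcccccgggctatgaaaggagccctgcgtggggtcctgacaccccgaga
Cspg4, chr8:66160692-66160941, plus strand: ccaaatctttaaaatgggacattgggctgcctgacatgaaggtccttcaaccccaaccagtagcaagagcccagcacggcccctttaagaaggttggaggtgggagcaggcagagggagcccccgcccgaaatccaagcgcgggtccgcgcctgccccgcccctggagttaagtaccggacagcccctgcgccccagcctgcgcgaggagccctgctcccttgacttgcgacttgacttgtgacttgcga
The Aspa window holds an E-box that begins at -94 from the start, and the whole window lies within the span annotated for Aspa, whose outer end is further upstream. The Cnp window holds a SOX element at -203 and an E-box at -134. The Cspg4 window held neither. Over both strands, ACAAAG was found in 6 of the 19 windows (Mag, Opalin, Hapln2, Mobp, Cnp and Enpp6) and in 16.3% of 33469 promoter windows of the same length. CAGCTG was found in 4 of the 19 (Opalin, Hapln2, Aspa and Cnp) and in 12% of all windows. The half-site of the glucocorticoid receptor, AGAACA, was found in 1 of the 19 (Mobp, where it overlaps a match to ACAAAG) and in 17.5% of all windows. Its full palindrome, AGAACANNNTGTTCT, was in 0 of the 19 and in 0.012% of all windows. These matches are letters in a window and do not show binding.

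None of the 30 measured genes passed the threshold 2 h after the start of the stress session. The difference was above 0 for 23 genes and below 0 for 7, so 76.7% were on the higher side, where 53.0% of all probe sets tested were. The median difference was 0.11 over the 30 genes and 0.004 over all genes. An unadjusted limma p under 0.05 with a higher level was found for 5 genes (Aspa, Ndrg1, Mog, Lpar1 and Olig1), where 3.43% of all probe sets had one. One with a lower level was found for 1 gene, the precursor gene C1ql1, where 2.92% of all probe sets had one, and the share for both directions was 6.35%. The 30 genes share cells and move together across rats, as shown further on, so these counts are not 30 separate observations.

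**Figure D1:**
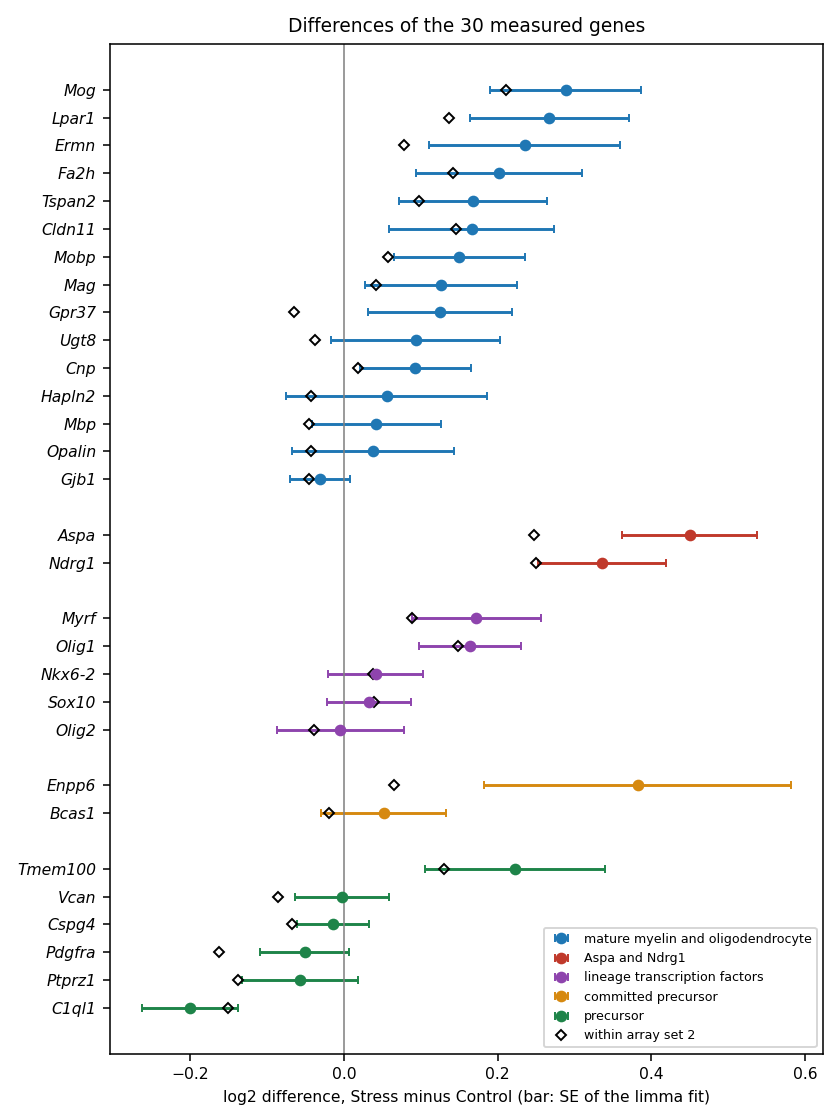
Log2 difference, Stress minus Control, of the 30 measured genes by list (filled points, with the SE of the limma fit as bars) and the same difference within array set 2 (open diamonds). Aspa (0.45) lies farthest right and C1ql1 (-0.20) farthest left, and most diamonds of the mature myelin genes lie nearer to 0 than their filled points.

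Aspa had the largest difference of the 30 genes. It encodes aspartoacylase, the oligodendrocyte enzyme that splits N-acetylaspartate into aspartate and the acetate used for myelin lipids. Its level was 7.58, 7.69 and 7.88 (lowest, median and highest) in Stress rats, against 7.0, 7.30 and 7.54 in Control rats. All 6 Stress rats lay above all 6 Control rats, and Aspa was the only gene of the 30 whose groups did not overlap, where 0.311% of all probe sets had such a gap upwards. Means were 7.71 ± 0.120 in Stress rats and 7.26 ± 0.211 in Control rats (SD, n = 6 each), a difference of 0.45 ± 0.088 (SE) or 1.37-fold, with an adjusted p of 0.137 in limma. The gap between the groups was narrow, since the lowest Stress rat was 7.58 and the highest Control rat 7.54. Within array set 2 the difference was 0.25 (adjusted p = 0.709). Leaving out Control 5, the rat with the highest choroid plexus and striatal markers, gave 0.51 and an adjusted p of 0.0422, which passes the threshold. Control 5 was also the Control rat with the highest Aspa level, 7.54, so leaving it out necessarily widens the difference. Adjusted p over the 12 fits that each left out 1 rat ranged from 0.0422 to 0.358.

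Ndrg1 came next among the genes with a p under 0.05. It is a cytoplasmic protein of oligodendrocytes, known as a substrate of the kinase Sgk1 and as a gene that glucocorticoids and low oxygen induce in other cells. Its level was 9.19, 9.41 and 9.45 in Stress rats, against 8.74, 9.07 and 9.29 in Control rats. Here 4 of 6 Stress rats lay above all Control rats, and the groups overlapped. Means were 9.35 ± 0.107 in Stress rats and 9.02 ± 0.204 in Control rats (SD, n = 6 each), a difference of 0.34 ± 0.083 (SE) or 1.26-fold, with an adjusted p of 0.323. Within array set 2 the difference was 0.25, the same as for Aspa, with an adjusted p of 0.646. Aspa and Ndrg1 varied together across the 12 rats (r = 0.923, and 0.814 on values centred within each group), so they do not count as separate findings.

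**Figure D2:**
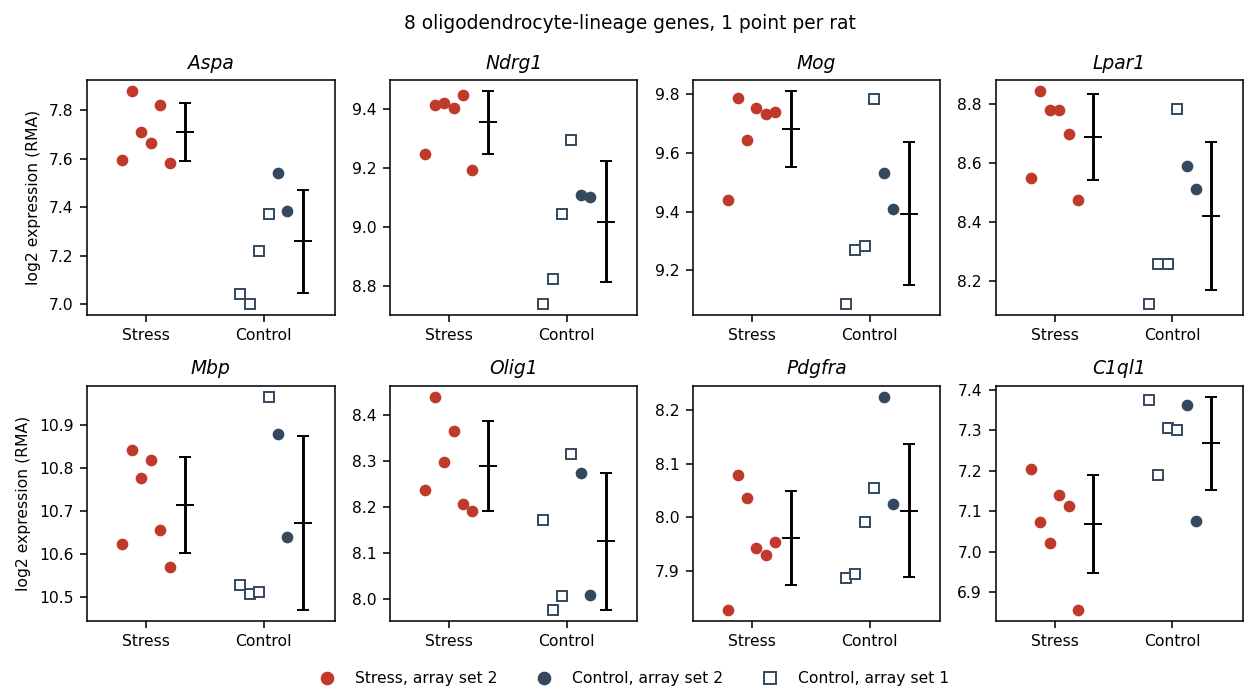
Log2 expression of 8 genes, 1 point per rat, Stress left and Control right, with the group mean and SD as the black bar and open squares for array set 1. Only for Aspa do the groups not overlap, and the open squares make up most of the low Control points for Mog, Ndrg1 and Lpar1.

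Among the mature myelin genes, 14 of 15 were above 0 and the median difference was 0.13, while none passed the threshold. The median was 0.075 without Control 1 and 0.20 without Control 4, the ends of its range when each rat was left out in turn. Mog, a glycoprotein on the outer face of the myelin sheath, had the largest difference of the group. Its level was 9.44, 9.73 and 9.79 in Stress rats, against 9.09, 9.35 and 9.78 in Control rats. All 6 Stress rats were above the Control median, but the highest Control rat was close to the highest Stress rat. The difference was 0.29 ± 0.098 (SE, n = 6 each), or 1.22-fold, with an adjusted p of 0.638. Lpar1, the receptor for lysophosphatidic acid that oligodendrocytes carry, had levels of 8.47, 8.74 and 8.84 in Stress rats and 8.12, 8.38 and 8.78 in Control rats, and the groups overlapped. Its difference was 0.27 ± 0.103 (SE), or 1.20-fold, with an adjusted p of 0.700.

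Mbp, Mobp, Cnp, Mag and Cldn11, proteins of the sheath, had smaller differences than Mog and Lpar1. Mbp, the basic protein that holds the cytoplasmic faces of the membrane together, had levels of 10.57, 10.72 and 10.84 in Stress rats, against 10.51, 10.58 and 10.97 in Control rats. Its range in Control rats enclosed its range in Stress rats. The difference was 0.04 ± 0.084 (SE; adjusted p = 0.965) and was -0.05 within array set 2. A second, dimmer probe set of Mbp gave 0.10 ± 0.039 (SE; adjusted p = 0.718), so its 2 probe sets were on the same side with unequal sizes. Mobp and Cnp, other proteins of the compact and non-compact sheath, were at 0.15 and 0.09. Mag, which binds the axon surface, was at 0.13, and the tight junction protein Cldn11 at 0.17.

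The remaining mature genes covered the cytoskeleton, membrane proteins and lipid enzymes of the sheath. Ermn, a cytoskeletal protein, was at 0.24 and Tspan2, a tetraspanin, at 0.17. Fa2h, which makes the 2-hydroxylated fatty acids of myelin lipids, was at 0.20, and Ugt8, which makes galactocerebroside, was at 0.09. Gpr37, a receptor that holds back oligodendrocyte differentiation in mice, was at 0.13. Hapln2, a link protein of the node of Ranvier, was at 0.06, and Opalin, a membrane protein of the myelin paranode, at 0.04. Gjb1, a connexin of gap junctions, was the only mature gene below 0. It had levels of 5.26, 5.33 and 5.38 in Stress rats, against 5.24, 5.38 and 5.42 in Control rats, and its mean over the 12 arrays, 5.34, was the nearest of the 30 to the required level of 4 (difference -0.03 ± 0.039 SE, adjusted p = 0.941). Tf, transferrin under its rat symbol, had a difference of 0.07 ± 0.129 (SE; adjusted p = 0.960).

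The Control rats lay far apart on this list. On centred values averaged over the 15 mature genes, Stress 1 to 6 were at -0.04, 0.18, 0.10, 0.17, 0.07 and -0.09. Control 1 to 6 were at -0.31, -0.21, -0.21, 0.27, 0.10 and -0.06. The highest rat of all 12 was therefore a Control, and the low end was made of Control 1, 2 and 3, which all belong to array set 1. Within array set 2, 9 of 15 mature genes were above 0 (48.3% of all probe sets were) and the median was 0.04, and Mbp, Opalin, Ugt8, Gpr37, Hapln2 and Gjb1 were below 0. Array set 1 has no Stress rat, so there the group and the set cannot be told apart.

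**Figure D3:**
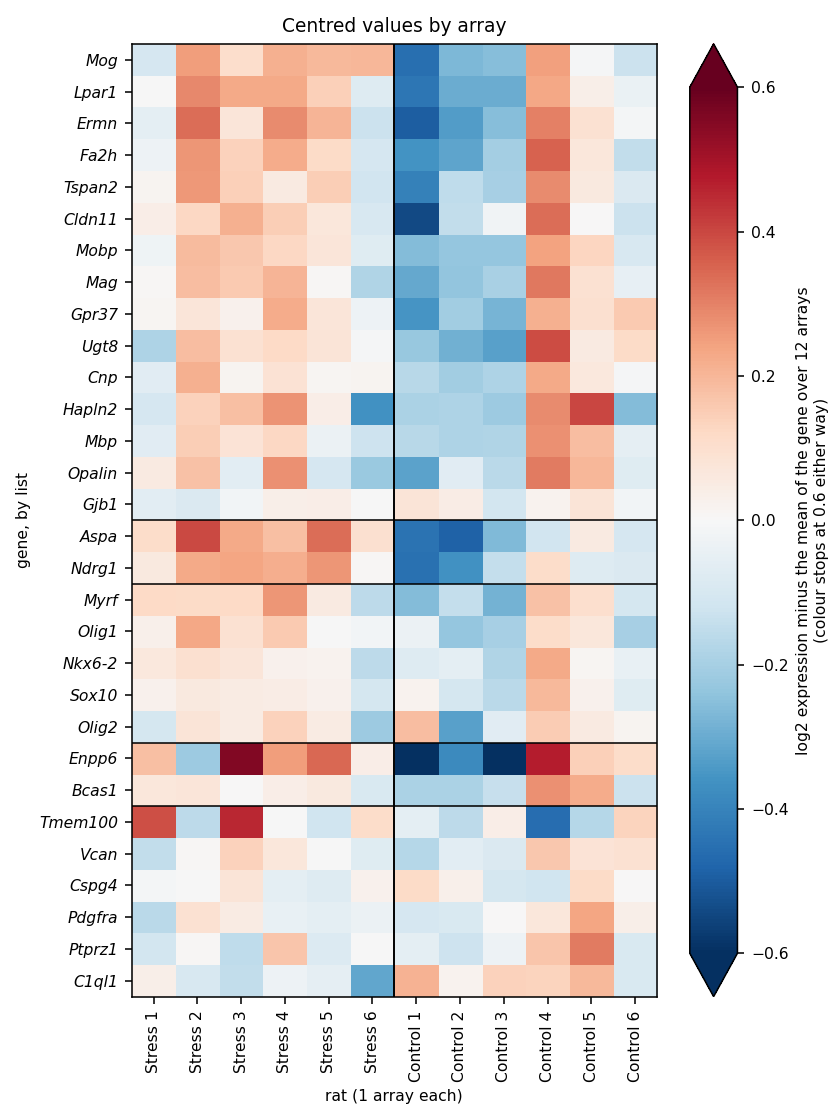
Centred log2 expression (gene mean over the 12 arrays set to 0) of the 30 measured genes in each rat, Stress left of the black line and Control right of it, with lists separated by lines across. Control 1, 2 and 3 are blue over most mature myelin genes and Control 4 is red over most of them, whereas the precursor genes at the bottom show no such columns.

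The lineage transcription factors had a median difference of 0.04, with 4 of 5 above 0. Olig1, a helix-loop-helix factor needed for maturation and repair, had levels of 8.19, 8.27 and 8.44 in Stress rats, against 7.98, 8.09 and 8.32 in Control rats. Its groups overlapped, with 2 Stress rats above all Control rats, and its difference was 0.16 ± 0.066 (SE; adjusted p = 0.738) and 0.15 within array set 2. Myrf, the factor that switches on myelin genes in differentiated cells, had levels of 6.77, 7.05 and 7.19 in Stress rats and 6.65, 6.80 and 7.10 in Control rats. The difference of Myrf was 0.17 ± 0.084 (SE; adjusted p = 0.806), and its groups overlapped. Olig2, the partner of Olig1 that specifies the lineage, differed by -0.005 ± 0.083 (SE; adjusted p = 0.996), with levels of 6.36, 6.63 and 6.71 in Stress rats and 6.25, 6.61 and 6.76 in Control rats. Sox10, which acts with Myrf on myelin genes, was at 0.03 and Nkx6-2, a homeodomain factor, at 0.04.

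Of the genes of committed precursors, Enpp6, a choline phosphodiesterase that marks newly forming oligodendrocytes, had a wide spread. Its level was 6.71, 7.14 and 7.49 in Stress rats, against 6.18, 6.79 and 7.40 in Control rats. The difference of 0.38, or 1.30-fold, came with an SE of 0.199 and an adjusted p of 0.812, and it was 0.06 within array set 2. Bcas1, a protein of early myelinating cells, had levels of 8.60, 8.74 and 8.77 in Stress rats and 8.50, 8.56 and 8.97 in Control rats. Its difference was 0.05 ± 0.081 (SE; adjusted p = 0.955), and the Control range enclosed the Stress range.

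Among the lists of the 30 genes, that of the precursors alone had a median below 0, at -0.03. Of its 6 measured genes, 5 were below 0 and 1 above, where 53.0% of all probe sets were above 0. Vcan (-0.003) and Cspg4 (-0.015) were close to 0, and the median was 0.003 without Control 5. A further list of precursor and newly formed oligodendrocyte genes, given below, had 12 of 14 above 0. C1ql1, a secreted C1q-like protein that precursors make, had the lowest difference of the 30 genes. Its level was 6.86, 7.09 and 7.20 in Stress rats, against 7.08, 7.30 and 7.37 in Control rats. No Stress rat reached the Control median, 3 Stress rats lay below all Control rats, and the groups overlapped. The difference was -0.20 ± 0.063 (SE, n = 6 each), or 0.87-fold, with an adjusted p of 0.544, and -0.15 within array set 2.

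The 2 classical precursor markers had small differences. Pdgfra, the receptor for platelet-derived growth factor A that keeps precursors dividing, had levels of 7.83, 7.95 and 8.08 in Stress rats and 7.89, 8.01 and 8.22 in Control rats. Its difference was -0.05 ± 0.058 (SE; adjusted p = 0.936), and -0.16 within array set 2 (adjusted p = 0.760). Control 5, in array set 2, was the Control rat with the highest Pdgfra, and without it the difference was -0.009. Cspg4, the NG2 proteoglycan that pericytes also carry, had levels of 6.34, 6.41 and 6.49 in Stress rats and 6.30, 6.43 and 6.53 in Control rats, a difference of -0.015 ± 0.047 (SE; adjusted p = 0.977). For both genes the groups overlapped almost wholly. Ptprz1, a receptor phosphatase, was at -0.06 and Vcan, the proteoglycan versican, at -0.003, and astrocytes and other cells also express both to some degree. Tmem100, a membrane protein that endothelium also makes, was the one gene of this list above 0, with levels of 7.30, 7.52 and 7.92 in Stress rats and 7.0, 7.35 and 7.59 in Control rats (difference 0.22 ± 0.117 SE, adjusted p = 0.812).

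The log2 ratio of members within each rat was compared between groups for 4 pairs, with Mog taken for mature genes and Pdgfra for precursors. The log2 value of Pdgfra minus that of Mog was -1.81, -1.75 and -1.61 in Stress rats (lowest, median and highest), against -1.73, -1.34 and -1.20 in Control rats. The ratio was below all Control rats in 3 of 6 Stress rats, and the overlap came from Control 4 alone, the next Control rat being at -1.38. The mean difference was -0.34 (95% interval -0.526 to -0.153), with p = 0.00866 in a two-sided exact permutation test over 924 labellings and 0.0346 after adjustment over the 4 ratios tested. Within array set 2 it was -0.37, where the exact test gave 0.0357, the smallest p that 28 labellings allow, and 0.143 after adjustment. Since Mog had the largest difference of the mature genes and the pair was chosen with that known, this p is not independent evidence of a difference between precursor and mature genes.

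The other 3 ratios set Aspa and Ndrg1 against Mog and against each other. Aspa minus Mog differed by 0.16 (95% interval -0.026 to 0.349), with 4 of 6 Stress rats above all Control rats and an exact permutation p of 0.0866, or 0.115 adjusted. Ndrg1 minus Mog differed by 0.05 (interval -0.097 to 0.191, exact permutation p = 0.472). Aspa minus Ndrg1 differed by 0.11 (interval -0.017 to 0.246, exact permutation p = 0.0779, adjusted 0.115), and by -0.002 within array set 2. None of these 3 passed, and their intervals leave room for differences of up to 0.35, 0.19 and 0.25.

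Across rats most mature genes varied together. Over the 105 pairs of mature genes, the median Pearson r over 12 arrays was 0.836, and it was 0.84 on values centred within group and 0.612 within array set 2. Gjb1 stood outside, with r = -0.09 with Mog. Aspa and Ndrg1 had a median r of 0.74 with the mature genes, and the committed genes 0.744. Between mature and precursor genes the median was 0.284. Among the 15 pairs of precursor genes it was 0.02, with r from -0.569 to 0.674 and above 0 for 8 pairs. The 6 precursor genes thus had no single pattern common to all of them, though some pairs varied together and others in opposite directions. The arrays share one normalization and most of these genes share cells, and the values are given as a description.

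**Figure D4:**
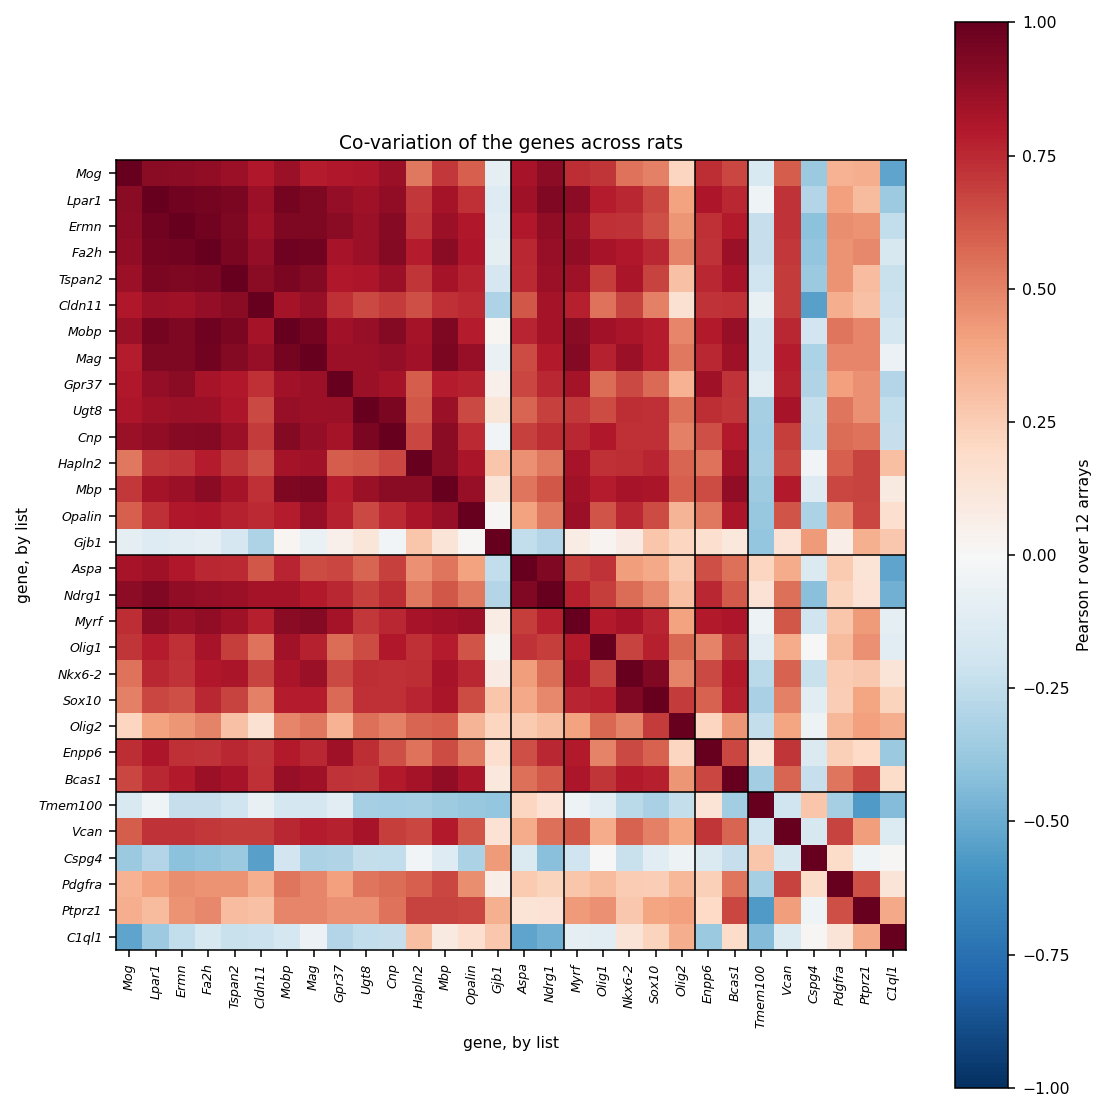
Pearson r over 12 arrays between each pair of the 30 measured genes, ordered by list and, within a list, by difference, with lines between lists. The mature block at the upper left is red throughout except for the row and column of Gjb1 (r = -0.09 with Mog), and the precursor block at the lower right has no single colour.

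Each of the other 29 genes was set against Mog over the 12 rats, and 17 had an adjusted permutation p of at most 0.05 for Pearson r, all of them positive, and 18 for Spearman rho. Lpar1 had the highest Pearson r (r = 0.906, rho = 0.881, adjusted permutation p = 0.00116 and 0.00247). Fa2h had r = 0.890 and rho = 0.916, and Cnp r = 0.867 and rho = 0.902, both with adjusted permutation p of at most 0.00218. For Ndrg1 r was 0.892 and rho 0.790, and for Aspa 0.823 and 0.706, and these also passed over the uncentred values. None of Pdgfra (r = 0.346, rho = 0.503), Cspg4 (-0.368 and -0.406) and C1ql1 (-0.530 and -0.497) did over the uncentred values. Without Control 1 and Control 2, the rats farthest from the median of Mog, 8 of 29 passed by Pearson r and 2 by Spearman rho, and r of Cnp was 0.815. Within array set 2, with 8 rats, 0 of 29 passed by either coefficient and r of Cnp was 0.648, so no relation passed within that set at this number of rats. Centred within group, 16 passed by Pearson r, 15 of them positive, and 13 by Spearman rho. These included precursor genes in part, since Vcan passed by r (0.795, adjusted permutation p = 0.0164), and Pdgfra (0.783) and Ptprz1 (0.811) by rho with an adjusted permutation p of 0.0261 each. Tmem100 passed by both with a negative sign (r = -0.650, rho = -0.720), and Cspg4 and C1ql1 passed by neither. Aspa also passed by neither on centred values (r = 0.687, rho = 0.664, adjusted permutation p = 0.0587 and 0.0694). It passed by neither without Control 1 and Control 2 as well (adjusted permutation p = 0.125 and 0.219). Ndrg1 passed on centred values by r (0.816, adjusted permutation p = 0.0175) but not by rho (0.706, adjusted permutation p = 0.0543).

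Ranked among 14846 genes by r with Mog, 12 of the 29 members were in the first 100, and 10 of these were mature genes. On values centred within group, 11 members were in the first 100, and 9 of these were mature genes. Aspa was at rank 46 on uncentred values and at rank 395 on centred ones. The 5th and 95th percentiles of uncentred r over all genes were -0.567 and 0.573. The 8 genes outside the list that were most like Mog were Elovl1 (r = 0.949), Gpr62 (0.927), Npc1 (0.925), Fah (0.925), Plekha1 (0.909), Serinc5 (0.904), Fxr1 (0.903) and Galnt6 (0.895), over 12 rats. Elovl1 lengthens saturated fatty acids, Npc1 carries cholesterol out of lysosomes and Gpr62 is an orphan receptor. Their differences ran from 0.06 for Plekha1 to 0.27 for Galnt6, and none passed the threshold. With the group means taken out, the genes most like Aspa were Il6st (0.917), Stag2 (0.904), Trpm7 (0.902), Sh3glb1 (0.899) and Cfap36 (0.899), whose own differences were between -0.03 and 0.03. Those most like Ndrg1 were Fnta (0.951), Prrg1 (0.943), Plekha1 (0.937), Tmem88b (0.925) and Acadl (0.924). The 5 nearest of Aspa and the 5 nearest of Ndrg1 had no gene in common, while Aspa and Ndrg1 had r = 0.814 with each other on centred values. Lists this short cannot show whether the 2 genes differ.

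Further genes of the lineage, outside the 34, were taken from 3 more lists. Of 18 measured other oligodendrocyte genes, 15 were above 0, with a median of 0.11 against 0.004 over all genes, and 0 passed the threshold. An unadjusted p under 0.05 was found for 2 of them, Gpr62 (0.12) and Cntn2 (0.14), a cell adhesion protein of the juxtaparanode. Of 14 measured genes of precursors and newly formed oligodendrocytes, 12 were above 0, with a median of 0.06 and 0 past the threshold. The one with an unadjusted p under 0.05 was Bmp4, a growth factor that newly committed oligodendrocytes make and that also holds back their maturation. Bmp4 was at 6.35, 7.17 and 7.50 in Stress rats, against 5.39, 6.29 and 6.62 in Control rats, and its groups overlapped. Its difference was 0.97 ± 0.225 (SE; adjusted p = 0.259) and 0.52 within array set 2, larger than that of any of the 30 genes. Of 12 measured genes in the list for myelin lipid synthesis, which also holds the channel-trafficking gene Pex5l, 6 were above 0 and 6 below, with a median of 0.03 and none with p under 0.05.

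Markers of other cells and regions moved with the groups in part. Of all probe sets tested, 53.0% were above 0, and 2.92% were lower with an unadjusted limma p under 0.05. All 12 measured markers of striatal projection neurons were lower in Stress rats, and their centred mean ran from -0.59 to 0.69 in Stress rats and from -0.51 to 0.95 in Control rats, with Control 5, Control 4 and Stress 4 highest. All 10 markers of choroid plexus were also lower, with means of -0.40 to -0.10 in Stress rats and -0.38 to 2.92 in Control rats, where 2.92 is Control 5. The other Control rats lay at -0.38 to -0.09, close to the Stress range. All 7 measured blood cell markers were lower, each with an unadjusted p under 0.05, with means of -0.75 to -0.04 in Stress rats and -0.46 to 0.96 in Control rats. Of 10 endothelial markers 7 were lower, and 5 of these had a p under 0.05. Astrocyte and microglia markers had medians of -0.004 and -0.03. Markers were counted only where their mean was above 4.

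The mature myelin mean was set against these marker means over the 12 rats. Its r was -0.686 with cortical excitatory markers, 0.572 with astrocyte markers and 0.382 with striatal markers, or -0.732, 0.551 and 0.642 on values centred within group. In a fit that also held the striatal mean, 26 of 30 genes were above 0 (50.4% of all probe sets were), and the median of the mature genes was 0.22. An unadjusted limma p under 0.05 was found for 14 of 30 genes (6.15% of all probe sets had one), and 0 passed the threshold (0.0684% of all did). Most of these genes vary together across rats, so the 14 are not separate findings. Without Control 5, Control 4 and Stress 4, a choice made after seeing the data, the difference of Aspa was 0.56 (limma adjusted p = 0.0558). Control 5 (7.54) and Control 4 (7.37) lay above the Control mean of Aspa (7.26), and Stress 4 (7.67) lay below the Stress mean (7.71). Leaving these rats out therefore necessarily widens the difference. The precursor mean went with the choroid plexus mean at r = 0.717 over all rats and -0.133 without Control 5, and the median of the precursor genes was 0.003 without that rat and 0.0085 with the striatal mean in the fit, so its sign was not stable. The part of white matter, striatum or blood in the differences of the myelin genes was not tested.

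**Figure D5:**
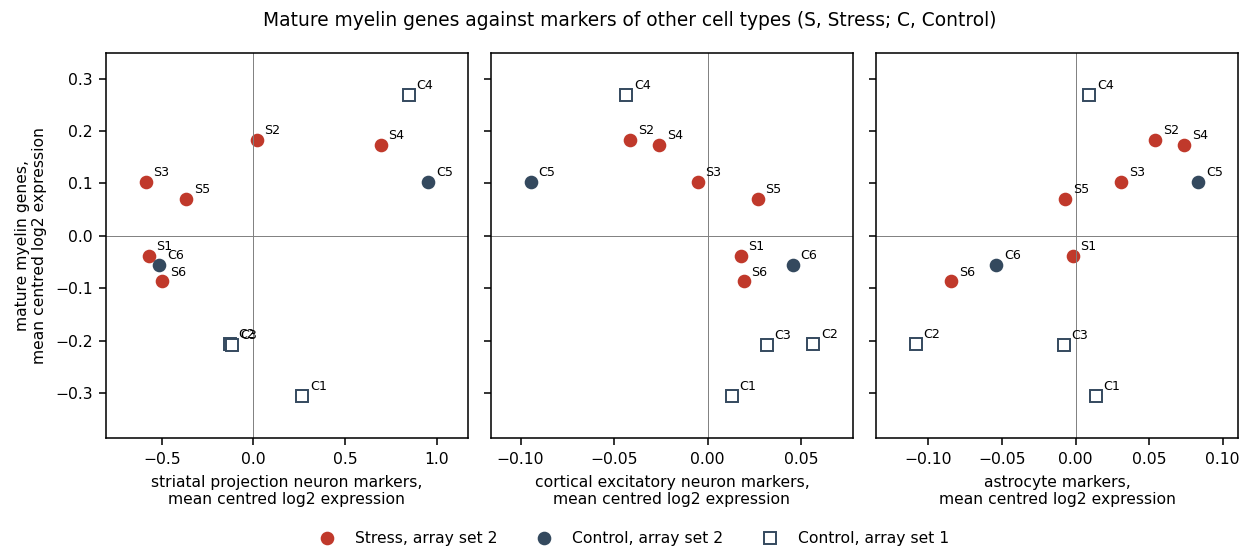
Mean centred log2 expression of the 15 mature myelin genes (vertical axis) against that of striatal, cortical excitatory and astrocyte markers (horizontal axes), 1 point per rat, S for Stress and C for Control. Control 4 is high on both myelin and striatal markers, and the myelin mean is lower where the excitatory mean is higher (r = -0.686).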

How the data were processed

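Expression was measured in the PFC of 12 rats, 6 per group, with 1 array (Affymetrix Rat Gene 1.0 ST) per rat, and groups came from the sample labels. The authors ran RMA of oligo (version 1.58.0, per the submitters' processing notes) and deposited 1 log2 value for each probe set and array. RMA includes quantile normalization, which takes out any shift common to the whole array, and it understates changes of dim probe sets. Arrays carry no read depth, and their number limits the precision.

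Of 29214 probe sets, 18644 had exactly 1 gene symbol in the platform annotation, 962 had several and 9608 were not listed there. Symbols were updated through a RefSeq table of GRCr8 for 99.0% of the 1-symbol probe sets. Tested were 16085 probe sets (1 symbol, mean above 4) with limma (version 3.58.1, R 4.3.3; lmFit, then eBayes), group as the only term, two-sided, adjusted by Benjamini-Hochberg over all of them, with calls at an adjusted p of at most 0.05. The study's methods name this test and cutoffs of the same size, while the annotation table, the use of 1-symbol probe sets and that of the mean over arrays are not taken from them. The fit was tested on simulated data. SE comes from limma, and folds are antilogs of the differences. Ratios of 2 genes were tested by exact permutation of the 12 arrays, and relations with Mog by 100000 permutations, each family adjusted on its own. Array sets came from Ward clustering of the dimmest 10% of probe sets.

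The members and lists were chosen with earlier results of these data known. Full values are given for Aspa, Ndrg1, Mog, Mbp, Olig1, Olig2, Pdgfra and Cspg4, for members with an unadjusted p under 0.05, and for the highest and lowest difference of each list, with Gpr17 not analysed. For the nearest genes r is given, with a range of differences for those of Mog and of Aspa. Tf, the second probe set of Mbp and Bmp4 levels are given beside that rule. Alternatives were the filter, the normalization centre, the probe set choice, eBayes options, a replicate block, the array set, a striatal covariate and leaving out each rat.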

Additional observations from a re-analysis of the deposited data

Results flagged for a closer look

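In 68 groups of 6 rats looked at, 1 rat stood far from the other 5 of its group in 3 cases, while chance gives about 1 in 20 groups. Sox10 was 7.163 in Stress 6, where the other Stress rats were at 7.295 to 7.33, a gap of 0.792 of the range. Nkx6-2 was 5.852 in Stress 6, with the other Stress rats at 6.034 to 6.107 (0.713 of the range). Stress 6 was thus the low rat for both of these factors. The log2 value of Pdgfra minus that of Mog was -1.727 in Control 4, with the other Control rats at -1.384 to -1.199 (0.65 of the range), and Control 4 was also the rat with the highest mature myelin mean.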

How the results depend on the processing

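Of the member differences recomputed under 23 alternatives, 656 kept their direction and their side of the threshold, 33 changed sign and 1 newly passed. Changes of filter or eBayes options and the replicate block leave a difference as it was, so no sign could change there. The probe set choice bears on Mbp only. The array set as a term and the fit within array set 2 give the same differences but are counted separately. The 656 is therefore no measure of robustness. No sign changed for 19 of the 30 genes. With the array set as a term or within array set 2, Mbp was at -0.045, Opalin -0.043, Ugt8 -0.038, Gpr37 -0.065, Bcas1 -0.020 and Hapln2 -0.043, the median of the precursor genes was -0.112, and 1 probe set was called of all tested in place of 7. With the striatal mean added to the fit, Olig2 was at 0.066, Vcan at 0.031 and Ptprz1 at 0.048. An alternative chosen after seeing the data left out the 3 arrays of highest striatal marker mean, and gave Olig2 0.018, Pdgfra 0.016, Vcan 0.043 and Ptprz1 0.0082. The cause of these changes was not tested. Leaving out each rat in turn gave 4 to 8 called probe sets overall and 0 to 1 among the members (Aspa, without Control 5). The lowest and highest differences were then -0.022 and 0.104 for Opalin, -0.070 and 0.038 for Olig2, -0.040 and 0.0073 for Cspg4, and -0.037 and 0.030 for Vcan. Aspa minus Mog ranged from 0.106 to 0.198 (unadjusted exact permutation p = 0.0325 without Stress 6), Aspa minus Ndrg1 from 0.081 to 0.153 (unadjusted exact permutation p = 0.0173 without Control 5), and Pdgfra minus Mog from -0.409 to -0.303. Aspa minus Ndrg1 was -0.0022 within array set 2. Relations with Mog past the threshold numbered 0 within array set 2 and 8 without the 2 arrays farthest from the median of Mog.

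Samples of the 2 groups share replicate numbers, but the labels do not say what these mean. Correlations of the deviations of same-numbered rats ran from -0.142 to 0.422, and 3 of 6 numbers had their own partner as the best one. A replicate block gave 6 called probe sets, an adjusted p of 0.198 for Aspa and -0.34 for Pdgfra minus Mog (exact permutation p = 0.0313, the smallest that 64 labellings allow, adjusted 0.125). It changed no limma call of a member, but the ratio of Pdgfra to Mog no longer passed.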
